A study of Mus musculus with 27 samples.

Results

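The genes described here are 34 genes listed as transcriptional targets of the tumour suppressor p53. They were taken by name and kept where their counts summed to at least 10 over the 27 libraries. Whether p53 acts on each of them in these mouse cells was not tested. All 34 listed genes met that minimum, out of 50559 genes in the count table, of which 22415 met it. Expression was measured in mouse thyroid gland organoids (mTGOs), which are 3-dimensional structures grown in Matrigel from cells of the thyroid glands of female C57BL/6 mice aged 8 to 12 weeks, in a medium with EGF, FGF2, B27 and the ROCK inhibitor Y27632. Organoids were grown for 5 days and then received photon irradiation at 2, 4 or 7 Gy or none (0 Gy). RNA was taken at day 5 from the 0 Gy cultures and at days 7 and 11 from all 4 doses, which is 2 and 6 days after the exposure. The 9 groups held 3 libraries each, from the cultures named mTG11, mTG12 and mTG14 in the column headers, and library values are given in that order throughout. Every group shared the strain, the tissue and the medium, and the day 7 and day 11 groups differed in the dose alone within a day. The questions were how far each target stepped up with dose at day 7, what was left of the difference at day 11, and how the same genes moved over the culture without irradiation.

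p53 is a transcription factor that is kept scarce in resting cells by the ubiquitin ligase MDM2. DNA double-strand breaks activate the kinases ATM and CHK2, p53 is then stabilised, and it switches on genes that halt the cell cycle, repair DNA, adjust metabolism or start apoptosis, along with genes such as Mdm2 that end the response. Ionizing radiation is a classical activator of this pathway and a known cause of thyroid cancer. These are textbook facts and not results of the libraries analysed here.

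Library totals ranged from 2528866 to 5723150 counts, and the smallest amount taken as detectable, 3 counts, stood for 0.524 to 1.19 counts per 1000000 counts of the library (CPM). Such limits cover counting error only. The shallowest library was 2 Gy day 7 mTG11, with 2528866 counts, and the deepest was 7 Gy day 11 mTG11, with 5723150. Levels are CPM scaled by edgeR's TMM factors, and because Smart3SEQ reads the 3′ ends of transcripts, no correction for length was made and levels are compared between groups, not between genes. Log2 fold changes are given ± 1 standard error, and every adjusted p is that of the quasi-likelihood test of edgeR, adjusted by Benjamini-Hochberg over all genes tested in the fit. A gene was called where the adjusted p was under 0.05. The libraries of a group come from differently named cultures: the sample labels number 3 mice in each group, and the study's methods speak of 3 animals while the series description speaks of 4. The labels do not pair the culture names with the mouse numbers, and the p-values measure the spread between these cultures. The defining markers of thyroid follicular cells were scarce: Tg had 277 counts over all 27 libraries, Tshr 11 and Slc5a5 6, while Foxe1 (29.8 CPM on average), Duox2 (27.6) and Nkx2-1 (12.5) were present. Of 9 markers of stratified epithelium, the summed level was 17500 to 27200 CPM over the libraries of days 5 and 7 and 8070 to 14200 CPM at day 11. In such bulk samples, fewer cells of a type and less RNA per cell cannot be told apart.

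A p53 response element is built from 10-base sequences known as the p53 consensus decamers. A pair of decamers with no bases between them was searched on both strands in the GRCm39 genome, within 5000 bases on either side of each gene's start site. Up to 2 mismatches of 20 were allowed outside the fixed C and G of each core. Pairs with bases between the decamers were not searched. An adjacent pair was found near 14 of the 34 targets (41.2%), against 1946 of 17717 genes tested at day 7 (11.0%). With at most 1 mismatch the numbers were 8 of 34 (23.5%) and 376 of 17717 (2.1%). The window was widened to this size after a narrower scan had been seen to miss the match near the upstream end of Cdkn1a. A match is a stretch of letters and not a measured binding site, and the absence of one says only that these letters are not in the window. The following 60-base stretches are printed because their 20-base matches lie outside the exons of targets that the results turn on. The bases on either side were not checked against exons, and those of Cdkn1a run past the annotated start of the gene at 29309936. Perp is included as a target with a match whose level passed the test at no dose at day 7. They are read 5′ to 3′ on the strand of the gene with 20 bases on either side of the match, whose coordinates are given, and capitals mark the 4-base core of each decamer, which starts with C and ends with G. 
Cdkn1a, chr17:29309902-29309921: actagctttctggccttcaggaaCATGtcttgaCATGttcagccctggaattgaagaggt
Ccng1, chr11:40646289-40646308: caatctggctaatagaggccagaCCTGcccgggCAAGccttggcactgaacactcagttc
Plk2, chr13:110530928-110530947: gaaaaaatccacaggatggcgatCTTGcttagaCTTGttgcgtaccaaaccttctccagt
Psrc1, chr3:108291972-108291991: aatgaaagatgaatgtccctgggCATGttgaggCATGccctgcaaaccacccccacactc
Fas, chr19:34269764-34269783: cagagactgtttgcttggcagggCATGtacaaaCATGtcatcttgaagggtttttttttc
Zmat3, chr3:32424300-32424319: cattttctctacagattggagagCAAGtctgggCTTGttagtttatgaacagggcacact
Ddit4, chr10:59792283-59792302: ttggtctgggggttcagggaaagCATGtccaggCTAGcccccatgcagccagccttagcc
Perp, chr10:18718782-18718801: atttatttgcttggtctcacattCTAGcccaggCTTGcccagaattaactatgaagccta
The Cdkn1a match had 1 mismatch and lay just upstream of the annotated gene on chromosome 17, at position -2827 from the canonical start site, where negative positions are upstream. The Ccng1 match, with 1 mismatch, lay at -160 on chromosome 11, and the Plk2 match, with 2, at -78 on chromosome 13. The matches of Psrc1 (861 bases after the start site, 1 mismatch) and Fas (1714 bases after it, 2 mismatches) were intronic. The Zmat3, Ddit4 and Perp matches lay at -4401, -4630 and -1924 with 1, 0 and 2 mismatches. Matches stood near 10 of the 21 targets called higher at 7 Gy at day 7 (47.6%) and near 4 of the other 13 (30.8%), and with at most 1 mismatch near 5 of 21 (23.8%) and 3 of 13 (23.1%).

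At day 7 a part of the targets was called higher in irradiated organoids than at 0 Gy, more of them at 4 and 7 Gy than at 2 Gy. None was called lower. At 2 Gy 8 of 34 were called higher, where 0.119% of all 19346 genes tested were called higher. At 4 Gy 20 were called higher, against 0.972% of all genes, and at 7 Gy 21, against 3.20% of all genes. The median log2 fold change over the 34 targets was 0.67 at 2 Gy, 0.94 at 4 Gy and 1.08 at 7 Gy, while that of all genes tested was between 0.00 and 0.01, and at 7 Gy 13 targets were not called, 5 of them with estimates below 0. All 3 libraries at 2 Gy lay above all 3 at 0 Gy for 21 of the 34 targets, an ordering shown by 5.74% of all genes, and at 7 Gy this held for 25, against 13.7% of all genes. The mean level was higher after each of the 3 dose steps for 23 targets, against 10.8% of all genes. The 8 called at 2 Gy were Ccng1, Trp53inp1, Cdkn1a, Plk2, Aen, Eda2r, Ephx1 and Zmat3. That count moved with single libraries and fell to 2, 3 or 3 when the 0 Gy library of mTG11, mTG12 or mTG14 was left out, to 2 without the 2 Gy library of mTG12 and to 4 without that of mTG14. With the culture as a replicate block, under which 0.424% of all genes were called higher, it was 13, the added genes being Mdm2 (adjusted p = 0.00652), Ak1 (adjusted p = 0.0107), Ercc5 (adjusted p = 0.011), Polk (adjusted p = 0.0361) and Pmaip1 (adjusted p = 0.0424). The same block also called Ddit4 (adjusted p = 0.00521), Phlda3 (adjusted p = 0.03) and Pvt1 (adjusted p = 0.0319) at 4 Gy (2.84% of all genes), and Phlda3 (adjusted p = 0.0103) and Apaf1 (adjusted p = 0.029) at 7 Gy (5.40% of all genes). The 21 calls at 7 Gy held in every alternative fit.

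**Figure D1:**
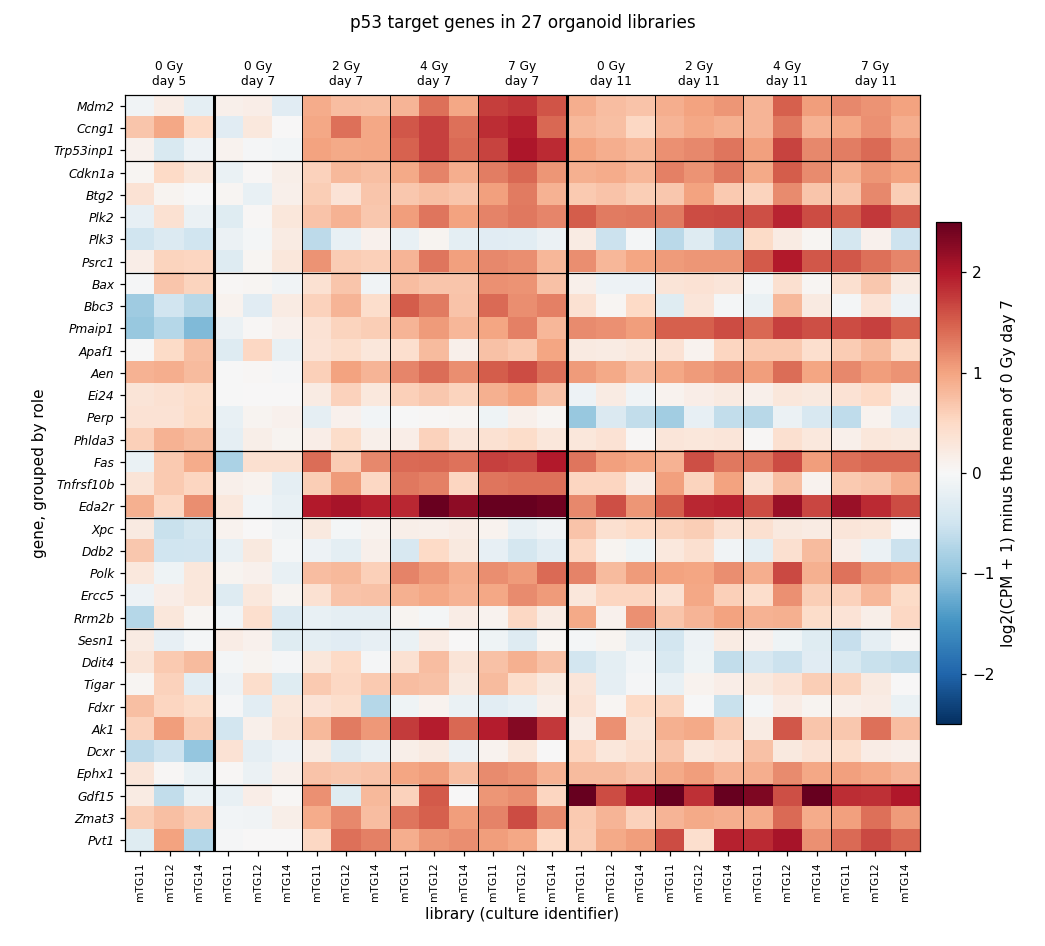
Colour shows log2(CPM + 1) minus its mean over the 3 libraries of 0 Gy day 7, for the 34 targets (rows, grouped by role) in all 27 libraries (columns, grouped by dose and day and named by culture). Red is higher and blue lower, and values beyond the ends of the colour bar take its end colours. Most rows turn red with dose at day 7, the 0 Gy columns of day 11 are also red in many rows, and the rows of Plk3, Perp, Xpc, Sesn1 and Fdxr stay near white across the doses of day 7.

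All 3 genes that feed back on p53 were called higher at 7 Gy, in ranges apart from those of 0 Gy at every dose. Mdm2 encodes the ubiquitin ligase that degrades p53. At day 7 Mdm2 measured 40.1, 41.4 and 29.9 CPM at 0 Gy, 71.1, 63.7 and 62.6 at 2 Gy, 66.7, 97.4 and 72.4 at 4 Gy and 124, 129.9 and 111 at 7 Gy. Its 4 Gy libraries overlapped those of 2 Gy, and each of the other dose steps separated the libraries completely. The Mdm2 log2 fold change against 0 Gy was 0.83 ± 0.16 (adjusted p = 0.0741) at 2 Gy, 1.10 ± 0.15 (adjusted p = 0.00224) at 4 Gy and 1.72 ± 0.15 (adjusted p = 3.12e-05) at 7 Gy. The step from 4 to 7 Gy was 0.62 ± 0.14 (adjusted p = 0.398), and with the culture as a replicate block its adjusted p was 0.0402, where 0.0930% of all genes were called higher. Ccng1, which encodes cyclin G1, a partner of a phosphatase that acts on MDM2, was called higher at each dose. Ccng1 measured 86.7, 127 and 106 CPM at 0 Gy, 206, 276 and 207 at 2 Gy, 311, 345 and 273 at 4 Gy and 379, 408 and 286 at 7 Gy. No irradiated library overlapped those of 0 Gy, while 2 and 4 Gy overlapped, as did 4 and 7 Gy. The Ccng1 log2 fold change against 0 Gy was 1.13 ± 0.17 (adjusted p = 0.0148) at 2 Gy, 1.55 ± 0.17 (adjusted p = 0.000309) at 4 Gy and 1.76 ± 0.17 (adjusted p = 4.07e-05) at 7 Gy. Trp53inp1 encodes a nuclear protein that promotes the phosphorylation of p53. Trp53inp1 measured 41.4, 38.01 and 37.1 CPM at 0 Gy, 78.6, 75.7 and 76.8 at 2 Gy, 109.8, 128 and 106 at 4 Gy and 128, 160.5 and 145 at 7 Gy. The libraries of 0, 2 and 4 Gy formed 3 separate ranges, and 7 Gy overlapped 4 Gy at the edge of its range. The Trp53inp1 log2 fold change against 0 Gy was 0.99 ± 0.11 (adjusted p = 0.00161) at 2 Gy, 1.57 ± 0.11 (adjusted p = 6.89e-06) at 4 Gy and 1.89 ± 0.11 (adjusted p = 5.45e-07) at 7 Gy.

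Of the 5 genes that act on the cell cycle, 4 were called higher at 7 Gy. Cdkn1a encodes p21, the inhibitor of cyclin-dependent kinases through which p53 halts the cycle. Cdkn1a measured 219.7, 251 and 273 CPM at 0 Gy, 368, 432 and 418 at 2 Gy, 477, 582 and 463 at 4 Gy and 603, 672 and 530.0 at 7 Gy at day 7. Its libraries did not overlap between 0 and 2 Gy or between 2 and 4 Gy, and overlapped between 4 and 7 Gy. The Cdkn1a log2 fold change against 0 Gy was 0.72 ± 0.12 (adjusted p = 0.0244) at 2 Gy, 1.04 ± 0.12 (adjusted p = 0.000451) at 4 Gy and 1.29 ± 0.12 (adjusted p = 3.28e-05) at 7 Gy. Btg2 is an antiproliferative gene that also acts in mRNA decay. Btg2 measured 80.3, 67.9 and 84.1 CPM at 0 Gy, 118, 97.7 and 126 at 2 Gy, 124, 131 and 125 at 4 Gy and 158, 191 and 141 at 7 Gy, with no overlap between irradiated and 0 Gy libraries. The Btg2 log2 fold change against 0 Gy was 0.56 ± 0.13 (adjusted p = 0.177) at 2 Gy, 0.72 ± 0.13 (adjusted p = 0.0115) at 4 Gy and 1.08 ± 0.13 (adjusted p = 0.000192) at 7 Gy. Plk2, a polo-like kinase that responds to stress and acts at the centrosome, behaved like Cdkn1a in its order of libraries. Plk2 measured 56.3, 70.3 and 84.00 CPM at 0 Gy, 114, 128 and 112 at 2 Gy, 144, 177 and 141 at 4 Gy and 165, 174 and 164 at 7 Gy. The Plk2 log2 fold change against 0 Gy was 0.76 ± 0.13 (adjusted p = 0.0344) at 2 Gy, 1.14 ± 0.13 (adjusted p = 0.000451) at 4 Gy and 1.26 ± 0.13 (adjusted p = 6.31e-05) at 7 Gy. Psrc1 encodes a microtubule-associated protein of the mitotic spindle. Psrc1 measured 8.21, 11.1 and 13.01 CPM at 0 Gy, 24.4, 17.1 and 16.4 at 2 Gy, 20.01, 28.4 and 22.6 at 4 Gy and 25.5, 24.8 and 19.5 at 7 Gy, so 0 Gy stood apart from all irradiated libraries, and neighbouring doses above it overlapped. The Psrc1 log2 fold change against 0 Gy was 0.84 ± 0.22 (adjusted p = 0.309) at 2 Gy, 1.16 ± 0.21 (adjusted p = 0.0121) at 4 Gy and 1.13 ± 0.21 (adjusted p = 0.00558) at 7 Gy. Plk3, a related stress kinase, ranged from 12.1 to 15.7 CPM at 0 Gy and 10.9 to 12.1 CPM at 7 Gy, with overlap at every dose and a log2 fold change at 7 Gy of -0.25 ± 0.19 (adjusted p = 0.502).

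Among the 8 genes of the mitochondrial and effector arm of apoptosis, 5 were called higher at 7 Gy. Bax encodes a pore-forming protein of the outer mitochondrial membrane. Bax measured 39.2, 39.9 and 36.3 CPM at 0 Gy, 50.3, 63.2 and 36.01 at 2 Gy, 66.6, 62.5 and 62.4 at 4 Gy and 86.6, 84.4 and 64.9 at 7 Gy, and 2 Gy overlapped both 0 and 4 Gy. The Bax log2 fold change against 0 Gy was 0.40 ± 0.17 (adjusted p = 0.547) at 2 Gy, 0.74 ± 0.17 (adjusted p = 0.0398) at 4 Gy and 1.04 ± 0.16 (adjusted p = 0.00186) at 7 Gy. Bbc3 encodes PUMA, which frees BAX from its inhibitors, and its libraries ranged from 4.58 to 6.77 CPM at 0 Gy, 8.20 to 11.2 at 2 Gy, 10.03 to 18.3 at 4 Gy and 14.2 to 17.2 at 7 Gy. The 0 Gy libraries were below all irradiated ones, and those of 4 and 7 Gy overlapped. The Bbc3 log2 fold change against 0 Gy was 0.73 ± 0.25 (adjusted p = 0.439) at 2 Gy, 1.32 ± 0.23 (adjusted p = 0.011) at 4 Gy and 1.41 ± 0.24 (adjusted p = 0.00256) at 7 Gy. Pmaip1 encodes NOXA, a further protein of the same class. Pmaip1 measured 46.95, 53.1 and 55.5 CPM at 0 Gy, 66.4, 76.7 and 79.5 at 2 Gy, 94.04, 109.6 and 92.3 at 4 Gy and 103, 126 and 93.2 at 7 Gy, in separate ranges up to 4 Gy and with overlap from there to 7 Gy. The Pmaip1 log2 fold change against 0 Gy was 0.53 ± 0.13 (adjusted p = 0.214) at 2 Gy, 0.94 ± 0.12 (adjusted p = 0.00136) at 4 Gy and 1.06 ± 0.12 (adjusted p = 0.000187) at 7 Gy. Aen is an exonuclease that takes part in apoptotic DNA breakdown. Aen measured 18.7, 19.2 and 18.4 CPM at 0 Gy, 28.9, 38.7 and 34.6 at 2 Gy, 45.02, 51.4 and 43.5 at 4 Gy and 55.2, 60.2 and 50.4 at 7 Gy, and the ranges of 0, 2 and 4 Gy were separate. The Aen log2 fold change against 0 Gy was 0.88 ± 0.13 (adjusted p = 0.0154) at 2 Gy, 1.33 ± 0.13 (adjusted p = 9.54e-05) at 4 Gy and 1.57 ± 0.13 (adjusted p = 1.2e-05) at 7 Gy. Ei24 encodes a protein of the endoplasmic reticulum. Ei24 measured 57.3, 58.2 and 58.4 CPM at 0 Gy, 67.2, 86.5 and 70.2 at 2 Gy, 88.6, 93.6 and 86.2 at 4 Gy and 108, 118 and 97.2 at 7 Gy, with overlap between 2 and 4 Gy and no other neighbouring doses. The Ei24 log2 fold change against 0 Gy was 0.38 ± 0.11 (adjusted p = 0.357) at 2 Gy, 0.63 ± 0.11 (adjusted p = 0.00864) at 4 Gy and 0.90 ± 0.11 (adjusted p = 0.0002) at 7 Gy.

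The other 3 apoptosis genes did not pass the test at 7 Gy. Apaf1, the scaffold of the apoptosome, ranged from 4.36 to 8.62 CPM at 0 Gy and 9.63 to 12.4 CPM at 7 Gy, without overlap, and its log2 fold change was 0.85 ± 0.26 (adjusted p = 0.0653). Phlda3, an inhibitor of AKT signalling, ranged from 118 to 153 CPM at 0 Gy and 169 to 191 CPM at 7 Gy, also without overlap, with 0.38 ± 0.13 (adjusted p = 0.0914). Perp, which encodes a membrane protein of desmosomes, had a mean of 1045 ± 113 CPM (SD, n = 3) at 0 Gy and 1060.0 ± 87.1 CPM (SD, n = 3) at 7 Gy. These values overlapped, and the log2 fold change of Perp was 0.03 ± 0.10 (adjusted p = 0.913).

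All 3 receptor genes of the tumour necrosis factor receptor family were called higher at 7 Gy, and the 2 largest changes of the whole list, those of Eda2r and Fas, were among them. Eda2r is the receptor of an isoform of ectodysplasin A. Eda2r measured 3.33, 2.42 and 2.17 CPM at 0 Gy, 13.4, 13.99 and 12.8 at 2 Gy, 12.3, 19.1 and 15.9 at 4 Gy and 21.7, 23.6 and 18.4 at 7 Gy. The lowest irradiated library lay far above the highest 0 Gy library, and neighbouring doses above 0 Gy overlapped. The Eda2r log2 fold change against 0 Gy was 2.34 ± 0.25 (adjusted p = 0.000962) at 2 Gy, 2.58 ± 0.23 (adjusted p = 5.55e-05) at 4 Gy and 2.99 ± 0.23 (adjusted p = 5.5e-06) at 7 Gy. Fas, the receptor of FAS ligand, was scarce, from 0.513 to 2.44 CPM at 0 Gy, 3.06 to 5.89 at 2 Gy, 5.70 to 6.06 at 4 Gy and 7.35 to 9.35 at 7 Gy, and its lowest 0 Gy library was under the 3-count limit of 0.782 CPM. The Fas log2 fold change against 0 Gy was 1.32 ± 0.41 (adjusted p = 0.385) at 2 Gy, 1.73 ± 0.38 (adjusted p = 0.0343) at 4 Gy and 2.17 ± 0.37 (adjusted p = 0.0028) at 7 Gy. Tnfrsf10b is the mouse receptor of TRAIL. Tnfrsf10b measured 10.7, 10.3 and 8.13 CPM at 0 Gy, 15.3, 21.2 and 14.3 at 2 Gy, 25.5, 24.5 and 14.4 at 4 Gy and 26.02, 26.7 and 26.7 at 7 Gy, and 2 and 4 Gy were the neighbouring doses that overlapped. The Tnfrsf10b log2 fold change against 0 Gy was 0.84 ± 0.23 (adjusted p = 0.33) at 2 Gy, 1.14 ± 0.22 (adjusted p = 0.017) at 4 Gy and 1.44 ± 0.22 (adjusted p = 0.00139) at 7 Gy.

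The 5 genes of DNA repair and nucleotide supply were divided, with Polk and Ercc5 called higher at 7 Gy and Xpc, Ddb2 and Rrm2b not called. Polk encodes a DNA polymerase that copies past damaged bases. Polk measured 13.9, 14.3 and 11.4 CPM at 0 Gy, 23.2, 23.8 and 20.3 at 2 Gy, 32.6, 28.8 and 25.5 at 4 Gy and 30.6, 28.7 and 36.8 at 7 Gy, in separate ranges for 0, 2 and 4 Gy. The Polk log2 fold change against 0 Gy was 0.78 ± 0.16 (adjusted p = 0.1) at 2 Gy, 1.14 ± 0.15 (adjusted p = 0.00123) at 4 Gy and 1.28 ± 0.15 (adjusted p = 0.000174) at 7 Gy. Ercc5 encodes XPG, an endonuclease of nucleotide excision repair. Ercc5 measured 33.6, 50.8 and 44.4 CPM at 0 Gy, 55.8, 69.97 and 70.96 at 2 Gy, 78.95, 83.95 and 78.04 at 4 Gy and 83.2, 97.8 and 89.3 at 7 Gy, again in separate ranges up to 4 Gy. The Ercc5 log2 fold change against 0 Gy was 0.63 ± 0.14 (adjusted p = 0.149) at 2 Gy, 0.92 ± 0.13 (adjusted p = 0.00311) at 4 Gy and 1.08 ± 0.14 (adjusted p = 0.00031) at 7 Gy. Xpc and Ddb2, which recognise damage in the same repair pathway, had log2 fold changes at 7 Gy of -0.06 ± 0.14 (adjusted p = 0.852) and -0.38 ± 0.30 (adjusted p = 0.516). Xpc ranged from 16.8 to 19.2 CPM at 0 Gy and 15.7 to 19.2 CPM at 7 Gy. Ddb2 was scarce, from 4.11 to 5.93 CPM at 0 Gy and 3.29 to 4.04 CPM at 7 Gy, with the 7 Gy libraries below those of 0 Gy. Rrm2b, the p53-regulated subunit of ribonucleotide reductase, ranged from 5.01 to 9.29 CPM at 0 Gy and 7.20 to 10.01 CPM at 7 Gy, with 0.31 ± 0.24 (adjusted p = 0.501).

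Of 7 genes of metabolism and stress defence, Ak1, Ephx1 and Ddit4 were called higher at 7 Gy. Ak1 encodes adenylate kinase 1, which interconverts adenine nucleotides. Ak1 measured 7.44, 11.6 and 13.6 CPM at 0 Gy, 19.2, 27.3 and 23.5 at 2 Gy, 37.6, 44.3 and 30.1 at 4 Gy and 44.3, 56.02 and 38.2 at 7 Gy, in separate ranges up to 4 Gy. The Ak1 log2 fold change against 0 Gy was 1.14 ± 0.23 (adjusted p = 0.115) at 2 Gy, 1.80 ± 0.22 (adjusted p = 0.000904) at 4 Gy and 2.10 ± 0.22 (adjusted p = 7.21e-05) at 7 Gy. Ephx1 encodes microsomal epoxide hydrolase, a detoxifying enzyme. Ephx1 measured 98.8, 87.02 and 105 CPM at 0 Gy, 159, 154 and 159.9 at 2 Gy, 194, 202 and 164 at 4 Gy and 220.5, 212 and 177 at 7 Gy, and all irradiated libraries lay above those of 0 Gy. The Ephx1 log2 fold change against 0 Gy was 0.71 ± 0.11 (adjusted p = 0.0179) at 2 Gy, 0.95 ± 0.11 (adjusted p = 0.00052) at 4 Gy and 1.07 ± 0.11 (adjusted p = 7.08e-05) at 7 Gy. Ddit4 encodes REDD1, an inhibitor of mTORC1. Ddit4 measured 84.2, 91.3 and 84.95 CPM at 0 Gy, 106, 124 and 84.7 at 2 Gy, 113, 149 and 108 at 4 Gy and 144, 160.5 and 145 at 7 Gy, and 2 Gy overlapped 0 Gy. The Ddit4 log2 fold change against 0 Gy was 0.29 ± 0.14 (adjusted p = 0.616) at 2 Gy, 0.52 ± 0.14 (adjusted p = 0.0813) at 4 Gy and 0.79 ± 0.14 (adjusted p = 0.0033) at 7 Gy. Sesn1, a sestrin that limits mTORC1 activity, ranged from 11.4 to 16.4 CPM at 0 Gy and 11.2 to 14.8 CPM at 7 Gy, with -0.14 ± 0.18 (adjusted p = 0.702). Tigar, a fructose bisphosphatase, had a log2 fold change of 0.53 ± 0.23 (adjusted p = 0.21) and ranged from 7.32 to 12.9 CPM at 0 Gy and 11.3 to 16.9 CPM at 7 Gy. Fdxr, the mitochondrial ferredoxin reductase, gave -0.13 ± 0.32 (adjusted p = 0.859) with ranges of 3.77 to 5.96 CPM at 0 Gy and 3.79 to 5.22 CPM at 7 Gy. Dcxr, a xylulose reductase, gave 0.12 ± 0.17 (adjusted p = 0.747) with ranges of 142 to 213 CPM at 0 Gy and 169 to 202 CPM at 7 Gy. For these 4 genes the 0 and 7 Gy libraries overlapped.

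The last 3 targets encode a secreted factor and RNA-acting products. Zmat3 encodes an RNA-binding zinc finger protein. Zmat3 measured 35.7, 35.03 and 41.7 CPM at 0 Gy, 71.9, 87.2 and 64.2 at 2 Gy, 96.6, 106 and 78.6 at 4 Gy and 89.9, 118 and 85.8 at 7 Gy, with irradiated libraries apart from 0 Gy and neighbouring doses overlapping. The Zmat3 log2 fold change against 0 Gy was 1.01 ± 0.16 (adjusted p = 0.0179) at 2 Gy, 1.33 ± 0.15 (adjusted p = 0.00052) at 4 Gy and 1.39 ± 0.15 (adjusted p = 0.000134) at 7 Gy. Gdf15, a secreted stress hormone, ranged from 1.28 to 1.89 CPM at 0 Gy and 2.75 to 4.82 CPM at 7 Gy without overlap, but its error was wide, with 1.34 ± 0.57 (adjusted p = 0.19). Pvt1, a long noncoding RNA, ranged from 1.03 to 1.08 CPM at 0 Gy, 1.97 to 4.37 at 2 Gy, 2.86 to 3.65 at 4 Gy and 1.92 to 3.28 at 7 Gy, with 1.36 ± 0.41 (adjusted p = 0.0605) at 7 Gy. Both genes lay near the detection limit in the 0 Gy libraries.

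**Figure D2:**
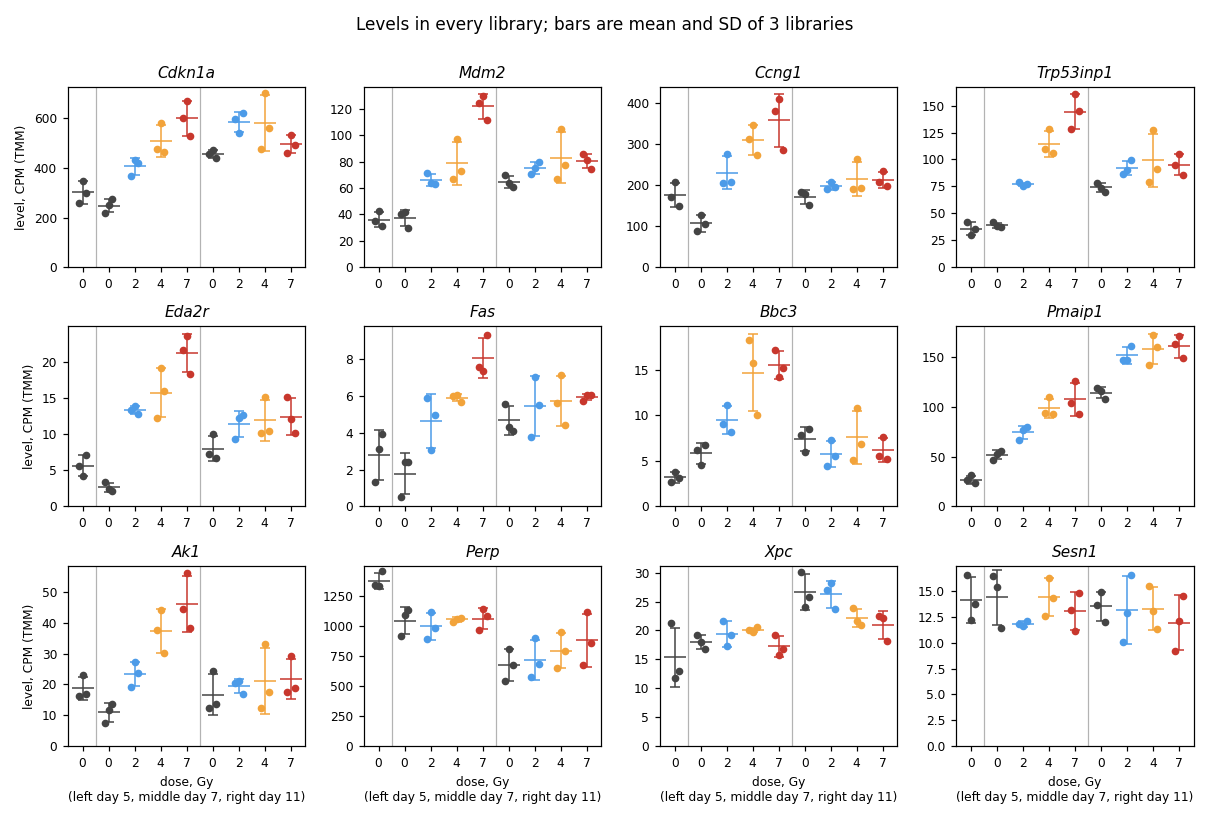
TMM-scaled CPM (vertical axis, from 0) of 12 targets in every library, by dose (horizontal axis) at day 5 (left of the first line), day 7 (middle) and day 11 (right). Points are libraries, and the horizontal mark and bar are the mean and SD of 3 libraries. Cdkn1a rose from a mean of 248 CPM at 0 Gy to 602 CPM at 7 Gy at day 7, whereas Perp, Xpc and Sesn1 show no such steps.

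Steps between neighbouring doses above 0 Gy did not pass the test. From 2 to 4 Gy at day 7 edgeR called 0 of 34 targets, and DESeq2 also 0, although 13 had an unadjusted p under 0.05, all higher, and 31 of the estimates were positive with a median of 0.30. From 4 to 7 Gy edgeR called 0, with 5 at an unadjusted p under 0.05, and DESeq2 called 1, Mdm2. Over all 19346 genes, edgeR called 0 in either step, and DESeq2 called 1 from 2 to 4 Gy and 18 from 4 to 7 Gy. In edgeR 855 and 1345 of these genes had an unadjusted p under 0.05 in either direction. The step estimates ranged from -0.23 to 0.66 for 2 to 4 Gy, the highest being that of Ak1, 0.66 ± 0.20 (adjusted p = 1), and from -0.60 to 0.62 for 4 to 7 Gy, between Ddb2 and Mdm2. Of the 34 targets, 25 were highest in mTG12 among the 4 Gy libraries at day 7, and likewise 25 at day 11. The share of all genes with that order was not counted, so it cannot be called particular to the targets. Nor was it confined to 4 Gy: at 7 Gy at day 7 mTG12 was also highest for Mdm2, Ccng1 and Cdkn1a, though not for Bax or Bbc3.

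At day 11 little of the difference between doses was left. Of the 34 targets edgeR called 0 at 2 Gy, 0 at 4 Gy and 1 at 7 Gy, where 1.06% of all 19901 genes tested were called higher at 7 Gy. At an unadjusted p under 0.05, 4 were higher at 2 Gy, 11 at 4 Gy and 10 at 7 Gy, while DESeq2 called 0, 1 (Pmaip1) and 1. Over all 19901 genes, 1157, 1500 and 2961 had such a p in either direction, and DESeq2 called 1, 37 and 417. The median log2 fold change over the targets was 0.14, 0.25 and 0.22 at the 3 doses. All 7 Gy libraries lay above all 0 Gy libraries for 14 targets, against 11.2% of all genes, and all 2 Gy libraries for 9, against 5.57%. The mean was higher after each dose step for 9 targets, against 8.05% of all genes. The called gene was Pmaip1, with 0.49 ± 0.10 (adjusted p = 0.0233) at 7 Gy. Pmaip1 measured 119, 115 and 108 CPM at 0 Gy, 147, 147 and 161 at 2 Gy, 142, 172 and 159.8 at 4 Gy and 163, 171 and 148 at 7 Gy at day 11, so every irradiated library lay above the 0 Gy libraries. The call was lost when any of the 3 libraries of 0 Gy, or the 7 Gy library of mTG11 or mTG12, was left out. With the culture as a replicate block, which raised the share of all genes called higher at 7 Gy to 3.60%, 5 targets were called, the others being Perp (adjusted p = 0.00202), Zmat3 (adjusted p = 0.00716), Bax (adjusted p = 0.0293) and Ei24 (adjusted p = 0.044), and at 4 Gy (0.864% of all genes) 2 were called, Pmaip1 (adjusted p = 0.0203) and Psrc1 (adjusted p = 0.024).

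Of the feedback and arrest genes none was called at day 11 in the fit without the block, while the blocked fit called Psrc1 at 4 Gy. Mdm2 measured 69.5, 63.5 and 60.5 CPM at 0 Gy, 70.2, 75.02 and 79.8 at 2 Gy, 66.9, 105 and 77.2 at 4 Gy and 85.3, 81.5 and 74.5 at 7 Gy at day 11. Ccng1 measured 184, 177 and 150.3 CPM at 0 Gy, 189.6, 208 and 196 at 2 Gy, 189.7, 264 and 194 at 4 Gy and 207, 234 and 197 at 7 Gy. Trp53inp1 measured 78.6, 73.7 and 70.2 CPM at 0 Gy, 86.5, 90.4 and 99.1 at 2 Gy, 79.5, 127 and 90.7 at 4 Gy and 95.3, 105 and 85.2 at 7 Gy. In these 3 genes all 7 Gy libraries were above those of 0 Gy. Their log2 fold changes at 7 Gy were 0.32 ± 0.14 (adjusted p = 0.3), 0.32 ± 0.13 (adjusted p = 0.257) and 0.36 ± 0.15 (adjusted p = 0.263). Cdkn1a measured 456, 473 and 440.1 CPM at 0 Gy, 596, 541 and 620.1 at 2 Gy, 478, 703 and 559.6 at 4 Gy and 461, 534 and 495 at 7 Gy, and 7 Gy was the dose whose libraries overlapped 0 Gy. The Cdkn1a log2 fold change at 7 Gy was 0.12 ± 0.12 (adjusted p = 0.725), after 0.36 ± 0.12 (adjusted p = 0.828) at 2 Gy. Btg2 measured 121, 126 and 119 CPM at 0 Gy, 124, 156 and 123 at 2 Gy, 114, 176 and 126 at 4 Gy and 126, 179 and 119 at 7 Gy, overlapping at every dose. Plk2 measured 199, 172 and 174 CPM at 0 Gy, 173, 216 and 221 at 2 Gy, 214, 262 and 216 at 4 Gy and 199, 238 and 206 at 7 Gy. Its libraries of 4 and 7 Gy lay above those of 0 Gy, for 7 Gy by a margin smaller than the rounding. Psrc1 measured 24.8, 19.5 and 22.02 CPM at 0 Gy, 23.2, 24.03 and 23.9 at 2 Gy, 32.7, 44.6 and 32.8 at 4 Gy and 32.8, 28.96 and 26.1 at 7 Gy, highest at 4 Gy. The log2 fold changes at 7 Gy were 0.21 ± 0.17 (adjusted p = 0.644) for Btg2, 0.24 ± 0.12 (adjusted p = 0.389) for Plk2 and 0.41 ± 0.15 (adjusted p = 0.2) for Psrc1. Plk3 gave -0.17 ± 0.24 (adjusted p = 0.825), and ranged from 8.94 to 15.8 CPM at 0 Gy, 8.03 to 10.6 at 2 Gy, 14.1 to 19.2 at 4 Gy and 9.06 to 14.6 at 7 Gy, with the libraries of 2 Gy below those of 4 Gy.

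Pmaip1 aside, no apoptosis or receptor gene was called at day 11 in the fit without the block, while the blocked fit called Bax, Ei24 and Perp at 7 Gy. Bax measured 42.3, 35.2 and 35.2 CPM at 0 Gy, 48.4, 49.5 and 47.4 at 2 Gy, 36.9, 51.1 and 39.7 at 4 Gy and 50.97, 62.00 and 45.00 at 7 Gy, with 2 and 7 Gy above 0 Gy and 4 Gy overlapping it. Aen measured 40.6, 37.4 and 32.9 CPM at 0 Gy, 37.7, 40.6 and 43.03 at 2 Gy, 39.9, 50.8 and 38.03 at 4 Gy and 44.3, 39.7 and 41.9 at 7 Gy, without separation at any dose. Ei24 measured 53.3, 66.6 and 54.8 CPM at 0 Gy, 61.9, 65.2 and 67.9 at 2 Gy, 63.1, 70.7 and 68.8 at 4 Gy and 75.1, 82.8 and 64.5 at 7 Gy, also overlapping. Their log2 fold changes at 7 Gy were 0.49 ± 0.14 (adjusted p = 0.114), 0.18 ± 0.12 (adjusted p = 0.555) and 0.35 ± 0.12 (adjusted p = 0.163). Bbc3 ranged from 5.96 to 8.51 CPM at 0 Gy and 5.21 to 7.64 CPM at 7 Gy, with -0.26 ± 0.29 (adjusted p = 0.761), and the ranges overlapped. Tnfrsf10b measured 14.3, 14.5 and 11.01 CPM at 0 Gy, 20.7, 14.7 and 20.4 at 2 Gy, 12.8, 17.01 and 10.3 at 4 Gy and 15.7, 16.3 and 18.8 at 7 Gy, with 4 Gy overlapping 0 Gy. Eda2r measured 7.30, 10.02 and 6.75 CPM at 0 Gy, 9.37, 12.3 and 12.6 at 2 Gy, 10.2, 15.2 and 10.5 at 4 Gy and 15.1, 12.1 and 10.2 at 7 Gy, above 0 Gy in all libraries of 4 and 7 Gy. Fas ranged from 4.11 to 5.59 CPM at 0 Gy and 5.76 to 6.04 CPM at 7 Gy. The receptors had log2 fold changes of 0.33 ± 0.19 (adjusted p = 0.467) for Tnfrsf10b, 0.64 ± 0.23 (adjusted p = 0.192) for Eda2r and 0.33 ± 0.26 (adjusted p = 0.618) for Fas. Apaf1 gave 0.46 ± 0.18 (adjusted p = 0.253), Phlda3 -0.02 ± 0.11 (adjusted p = 0.977) and Perp 0.39 ± 0.21 (adjusted p = 0.42). Perp had a mean of 672 ± 134 CPM (SD, n = 3) at 0 Gy and 881 ± 220.3 CPM (SD, n = 3) at 7 Gy.

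No repair, metabolic or RNA-acting target was called at day 11 without the block, and Zmat3 was called with it at 7 Gy. Polk measured 32.4, 23.3 and 28.5 CPM at 0 Gy, 27.2, 26.96 and 30.8 at 2 Gy, 25.4, 43.4 and 25.1 at 4 Gy and 35.3, 29.5 and 27.7 at 7 Gy at day 11. Ercc5 measured 51.8, 61.9 and 61.6 CPM at 0 Gy, 55.1, 83.8 and 64.5 at 2 Gy, 57.9, 94.6 and 65.3 at 4 Gy and 63.2, 75.9 and 59.4 at 7 Gy, and in both genes the doses overlapped. Ak1 measured 12.2, 24.4 and 13.5 CPM at 0 Gy, 20.3, 21.2 and 16.8 at 2 Gy, 12.4, 33.1 and 17.6 at 4 Gy and 17.4, 29.1 and 18.7 at 7 Gy, with mTG12 the highest culture at each dose. Ephx1 measured 167, 168 and 156 CPM at 0 Gy, 188, 201 and 178 at 2 Gy, 182, 221 and 191 at 4 Gy and 196, 189 and 174 at 7 Gy, with every irradiated library above 0 Gy. Ddit4 measured 63.00, 73.5 and 82.9 CPM at 0 Gy, 66.8, 80.7 and 56.3 at 2 Gy, 65.3, 59.8 and 70.8 at 4 Gy and 66.1, 58.5 and 56.5 at 7 Gy, lowest at 7 Gy on average. Zmat3 measured 59.6, 67.99 and 56.1 CPM at 0 Gy, 68.03, 72.96 and 71.1 at 2 Gy, 71.9, 102 and 71.9 at 4 Gy and 77.5, 99.1 and 79.03 at 7 Gy, and its 0 Gy libraries were below all others. The log2 fold changes at 7 Gy were 0.14 ± 0.20 (adjusted p = 0.825) for Polk, 0.18 ± 0.19 (adjusted p = 0.731) for Ercc5 and 0.39 ± 0.33 (adjusted p = 0.66) for Ak1. They were 0.19 ± 0.10 (adjusted p = 0.39) for Ephx1, -0.27 ± 0.14 (adjusted p = 0.39) for Ddit4 and 0.48 ± 0.14 (adjusted p = 0.123) for Zmat3. Among repair genes without a call at day 7, Xpc gave -0.34 ± 0.13 (adjusted p = 0.233), Rrm2b -0.51 ± 0.25 (adjusted p = 0.354) and Ddb2 -0.37 ± 0.33 (adjusted p = 0.675), and all 3 Xpc libraries of 7 Gy were below those of 0 Gy. Sesn1 gave -0.20 ± 0.21 (adjusted p = 0.747), Tigar 0.28 ± 0.21 (adjusted p = 0.6), Fdxr -0.28 ± 0.29 (adjusted p = 0.735) and Dcxr -0.16 ± 0.15 (adjusted p = 0.694). Gdf15 gave -0.29 ± 0.31 (adjusted p = 0.751) and Pvt1 0.81 ± 0.41 (adjusted p = 0.376), both with wide errors.

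**Figure D3:**
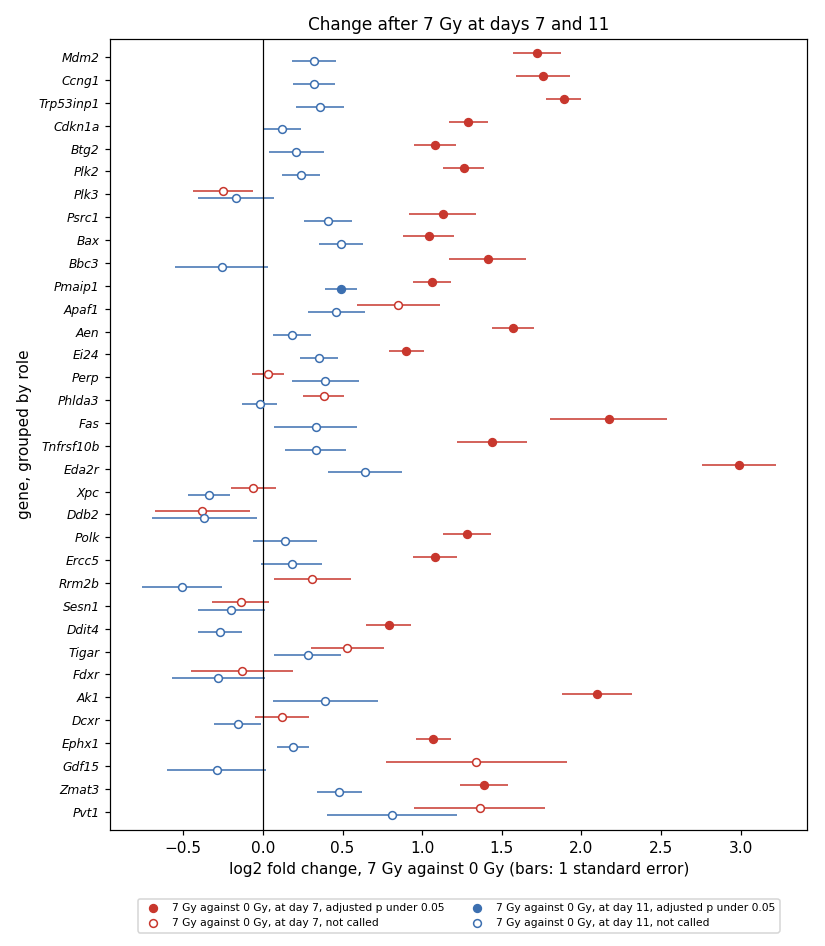
Log2 fold change of 7 Gy against 0 Gy (horizontal axis) for the 34 targets (rows, by role) at day 7 (red) and day 11 (blue), with bars of 1 standard error. Filled points have an adjusted p under 0.05 and open points do not. At day 7 21 points are filled, up to 2.99 for Eda2r, and at day 11 the filled point is Pmaip1 at 0.49.

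The change of the dose response between the days was tested directly as the difference of the effects, day 11 minus day 7. For 7 Gy this difference was called for 16 of 34 targets, all negative, where 0.807% of all 21928 genes tested were called negative. The largest were Eda2r at -2.32 ± 0.34 (adjusted p = 0.000198), Fas at -1.81 ± 0.45 (adjusted p = 0.0264), Ak1 at -1.68 ± 0.43 (adjusted p = 0.0312) and Bbc3 at -1.63 ± 0.38 (adjusted p = 0.0147). Trp53inp1 followed with -1.50 ± 0.19 (adjusted p = 4.1e-05), Ccng1 with -1.41 ± 0.22 (adjusted p = 0.000353), Mdm2 with -1.37 ± 0.21 (adjusted p = 0.000385) and Cdkn1a with -1.13 ± 0.17 (adjusted p = 0.00029). The other called genes were Aen, Polk, Ddit4, Plk2, Zmat3, Ephx1, Ercc5 and Btg2, from -1.36 ± 0.18 (adjusted p = 6.27e-05) for Aen to -0.84 ± 0.23 (adjusted p = 0.0432) for Btg2. Of the 21 targets higher at day 7, Psrc1, Bax, Pmaip1, Ei24 and Tnfrsf10b did not pass, and Pmaip1 had -0.53 ± 0.16 (adjusted p = 0.069). Leaving out single libraries ended the calls of Fas (5 libraries), Ak1 (7), Zmat3 (6), Polk (2), Btg2 (15) and Ercc5 (18). With the culture as a replicate block (1.65% of all genes negative) the count was 19, adding Tnfrsf10b (adjusted p = 0.0206), Ei24 (adjusted p = 0.0224) and Pmaip1 (adjusted p = 0.0249). For 4 Gy 4 targets were called, Trp53inp1, Aen, Eda2r and Ccng1, all negative, against 0.0547% of all genes. That count was 0 without the 0 Gy day 7 library of mTG14, 2 without the 4 Gy day 7 or the 0 Gy day 11 library of mTG12, and 11 without the 4 Gy day 11 library of mTG12. It was 9 with the replicate block (0.233% of all genes), which added Zmat3 (adjusted p = 0.00611), Plk2 (adjusted p = 0.0174), Ephx1 (adjusted p = 0.0185), Ak1 (adjusted p = 0.022) and Cdkn1a (adjusted p = 0.0249). For 2 Gy edgeR and DESeq2 called 0 targets. In edgeR 13 were negative at an unadjusted p under 0.05, beside 1132 of 21928 genes in either direction. The blocked fit called Ccng1 (adjusted p = 0.0276), beside 0.00912% of all genes.

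Between day 7 and day 11 levels fell after 7 Gy for some targets and rose without irradiation for others, and for several both held. After 7 Gy, 11 targets were called lower at day 11 than at day 7 and 1 higher, where 6.17% of all genes were called lower and 6.15% higher. The falls were largest for Ddit4 at -1.31 ± 0.14 (adjusted p = 2.24e-06), Bbc3 at -1.31 ± 0.25 (adjusted p = 0.000923) and Ak1 at -1.08 ± 0.27 (adjusted p = 0.0104). Ccng1 and Eda2r fell by 0.75 on the log2 scale, Tnfrsf10b by 0.64, Trp53inp1 by 0.60, Mdm2 by 0.59, Bax by 0.57, Ei24 by 0.54 and Aen by 0.40. Pmaip1 was the called riser, with 0.59 ± 0.11 (adjusted p = 0.000794), and Cdkn1a had -0.27 ± 0.12 (adjusted p = 0.154). The replicate block, with 8.27% of all genes lower and 8.91% higher, added Ercc5 (adjusted p = 0.00382) and Perp (adjusted p = 0.0384) as lower and Plk2 (adjusted p = 0.0207) as higher. The count of calls in both directions fell from 12 to 6 without the 7 Gy day 11 library of mTG14 and to 7 without the 7 Gy day 7 library of mTG12. Among the 21 targets higher at 7 Gy at day 7, the group mean was higher at day 11 than at day 7 for 0 Gy and lower for 7 Gy in 16, higher for both in Plk2, Psrc1 and Pmaip1, and lower for both in Bax and Ddit4. In 10 of the 16 the change at 0 Gy was the larger on the log2 scale, among them Mdm2, Cdkn1a, Aen and Eda2r. The 7 Gy mean at day 11 was still above the 0 Gy mean of day 7 in 20 of the 21, the exception being Ddit4. Those 21 were chosen by the day 7 contrast, which shares its libraries with these changes, so the counts are a description with no test.

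**Figure D4:**
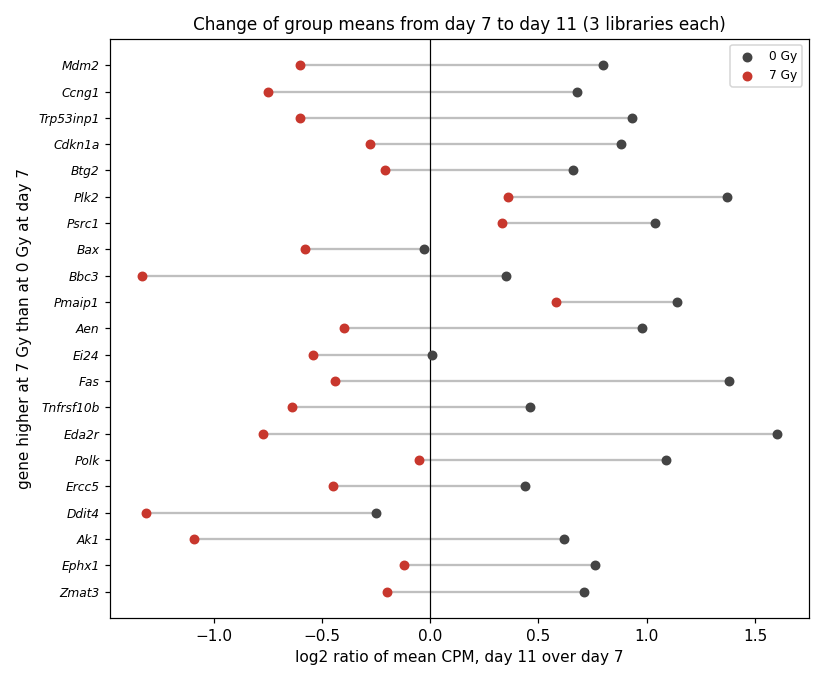
Log2 ratio of the group mean CPM at day 11 over that at day 7 (horizontal axis) without irradiation (dark points) and after 7 Gy (red points), for the 21 targets called higher at 7 Gy at day 7. In 16 genes the dark point lies above 0 and the red point below it, and in Plk2, Psrc1 and Pmaip1 both lie above 0.

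Without irradiation more targets were called lower than higher from day 5 to day 7, and more higher than lower from day 7 to day 11. From day 5 to day 7, 7 of 34 were called lower, where 9.62% of all 18442 genes tested were lower, and 3 higher, against 12.0%. Without scaling factors the split was 13 lower and 2 higher, under a shift of the median of all genes from 0.04 to -0.11. The lower genes were Eda2r at -1.08 ± 0.31 (adjusted p = 0.0286), Aen at -0.87 ± 0.12 (adjusted p = 0.00046), Phlda3 at -0.72 ± 0.12 (adjusted p = 0.00165), Ccng1 at -0.69 ± 0.15 (adjusted p = 0.00675), Zmat3 at -0.65 ± 0.11 (adjusted p = 0.00164), Ddit4 at -0.58 ± 0.13 (adjusted p = 0.00731) and Ei24 at -0.37 ± 0.10 (adjusted p = 0.023). At day 5 the libraries measured 5.64, 4.18 and 7.12 CPM for Eda2r, 35.00, 36.2 and 33.4 CPM for Aen, 170.4, 206 and 149 CPM for Ccng1 and 58.1, 63.4 and 58.3 CPM for Zmat3. In each of these 4 genes all libraries of day 5 were above all 0 Gy libraries of day 7. Day 5 levels were 109, 136 and 151 CPM for Ddit4 and 73.00, 75.4 and 80.3 CPM for Ei24, and Phlda3 ranged from 208 to 252 CPM. The higher genes were Pmaip1 at 0.97 ± 0.12 (adjusted p = 0.00023), Bbc3 at 0.88 ± 0.28 (adjusted p = 0.0416) and Dcxr at 0.76 ± 0.16 (adjusted p = 0.00459). Pmaip1 measured 26.2, 31.3 and 23.5 CPM at day 5, below every later library of its 0 Gy course. With the culture as a replicate block Ak1 (adjusted p = 0.016) and Perp (adjusted p = 0.0112) were also called lower, beside 11.0% of all genes.

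From day 7 to day 11 14 targets were called higher, against 9.57% of all genes, and 1 lower, against 11.7%. The median over the 34 targets was 0.62, beside 0.00 over all genes. Gdf15 had the largest log2 change, with a rise of 2.66 ± 0.36 (adjusted p = 0.00026), from a range of 1.28 to 1.89 CPM to one of 7.04 to 14.1 CPM. Eda2r rose by 1.56 ± 0.30 (adjusted p = 0.00262), Plk2 by 1.35 ± 0.17 (adjusted p = 0.000125), Pmaip1 by 1.12 ± 0.11 (adjusted p = 2.17e-05) and Polk by 1.06 ± 0.17 (adjusted p = 0.000819). Psrc1 rose by 1.02 ± 0.19 (adjusted p = 0.00252), Aen by 0.96 ± 0.12 (adjusted p = 0.000136), Trp53inp1 by 0.91 ± 0.12 (adjusted p = 0.000171), Cdkn1a by 0.86 ± 0.12 (adjusted p = 0.000248) and Mdm2 by 0.77 ± 0.14 (adjusted p = 0.00213). Ephx1, Zmat3, Ccng1 and Btg2 made up the rest, between 0.73 ± 0.12 (adjusted p = 0.000777) for Ephx1 and 0.64 ± 0.11 (adjusted p = 0.0015) for Btg2. Perp was the gene called lower, with -0.66 ± 0.13 (adjusted p = 0.00393). The replicate block added Ercc5 (adjusted p = 0.00914), Xpc (adjusted p = 0.0193), Dcxr (adjusted p = 0.0305) and Fas (adjusted p = 0.0364) as higher, beside 11.5% of all genes.

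Over the whole course, day 11 against day 5, 14 targets were called higher and 5 lower, beside 21.3% and 20.1% of all genes. Cdkn1a measured 257, 348 and 300.0 CPM at day 5 and was higher at day 11 by 0.60 ± 0.12 (adjusted p = 0.00131). Mdm2 started at 34.5, 42.2 and 30.9 CPM and Trp53inp1 at 41.8, 29.6 and 35.6 CPM, with log2 fold changes of 0.86 ± 0.14 (adjusted p = 0.000506) and 1.06 ± 0.12 (adjusted p = 2.11e-05). In these 3 genes all 0 Gy libraries of day 11 were above those of day 5. Plk2 started at 60.1, 90.9 and 62.2 CPM and rose by 1.36 ± 0.17 (adjusted p = 4.18e-05), and Btg2 started at 99.6, 81.2 and 76.98 CPM and rose by 0.51 ± 0.11 (adjusted p = 0.00273). Psrc1 started at 11.9, 16.02 and 15.8 CPM, Polk at 15.9, 12.2 and 16.1 CPM and Ephx1 at 120.1, 98.9 and 86.2 CPM, with rises of 0.60 ± 0.19 (adjusted p = 0.0231), 0.92 ± 0.17 (adjusted p = 0.000981) and 0.69 ± 0.12 (adjusted p = 0.000494). Pmaip1 rose by 2.09 ± 0.12 (adjusted p = 1.22e-07) and Gdf15 by 2.93 ± 0.39 (adjusted p = 7.55e-05), more than any other target. Dcxr, Bbc3, Rrm2b and Xpc were the other genes called higher, with 1.12 ± 0.15 (adjusted p = 0.000108) for Dcxr, 1.20 ± 0.27 (adjusted p = 0.00378) for Bbc3, 0.96 ± 0.35 (adjusted p = 0.044) for Rrm2b and 0.81 ± 0.20 (adjusted p = 0.00574) for Xpc. Perp had the largest fall over the course, at -1.03 ± 0.13 (adjusted p = 6.75e-05). Ddit4, Phlda3, Bax and Ei24 were also lower, from -0.86 ± 0.13 (adjusted p = 0.00025) for Ddit4 to -0.39 ± 0.10 (adjusted p = 0.0092) for Ei24. Bax started at 37.8, 62.7 and 56.7 CPM. Ccng1, Aen and Zmat3, which had dipped at day 7, had estimates against day 5 of -0.03 ± 0.15 (adjusted p = 0.881), 0.09 ± 0.11 (adjusted p = 0.565) and 0.03 ± 0.11 (adjusted p = 0.832). Tnfrsf10b measured 12.3, 15.8 and 14.4 CPM, Ercc5 38.5, 47.4 and 51.8 CPM and Ak1 16.3, 22.99 and 17.00 CPM at day 5, and none of the 3 was called over the course, with -0.08 ± 0.18 (adjusted p = 0.771), 0.34 ± 0.16 (adjusted p = 0.102) and -0.16 ± 0.28 (adjusted p = 0.686). Fas gave 0.71 ± 0.46 (adjusted p = 0.237), Sesn1 -0.06 ± 0.19 (adjusted p = 0.819), Tigar -0.11 ± 0.28 (adjusted p = 0.788), Fdxr -0.32 ± 0.24 (adjusted p = 0.325) and Ddb2 0.24 ± 0.38 (adjusted p = 0.652). Apaf1 gave -0.25 ± 0.29 (adjusted p = 0.531), Plk3 0.39 ± 0.22 (adjusted p = 0.183) and Pvt1 1.11 ± 0.62 (adjusted p = 0.174). The replicate block added Ercc5 (adjusted p = 0.0175) as higher, beside 22.6% of all genes.

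Genes around the pathway were read from 3 further lists. Of 17 regulators of p53, 2 were called lower at 7 Gy at day 7, beside 3.75% of all genes, and the median log2 fold change was -0.13. The called genes were Trp73, at -1.08 ± 0.27 (adjusted p = 0.0263), and Trp63, at -0.64 ± 0.10 (adjusted p = 0.00217), which encode relatives of p53, p63 being a factor of basal epithelial cells. Trp53 itself gave 0.46 ± 0.18 (adjusted p = 0.162). Of 20 further targets of p53, 19 were tested at day 7, and 7 were called higher (beside 3.20% of all genes) and 2 lower (beside 3.75%) at 7 Gy, with a median of 0.51. Named among them are Zfp365, which acts in genome stability, at 3.14 ± 0.39 (adjusted p = 0.000276), Tap1, a peptide transporter of antigen presentation, at 1.67 ± 0.26 (adjusted p = 0.0018), and Slc19a2, a thiamine transporter, at 1.62 ± 0.25 (adjusted p = 0.00153). Of 22 cell cycle genes known to be lowered through p21 and the DREAM complex, 10 were called lower at 7 Gy at day 7, where 3.75% of all genes were lower, with a median of -0.70. The largest falls were those of Mki67 at -1.47 ± 0.17 (adjusted p = 0.000165), Aurkb at -1.16 ± 0.19 (adjusted p = 0.00217), Cenpf at -1.16 ± 0.18 (adjusted p = 0.00153) and Cenpa at -1.02 ± 0.18 (adjusted p = 0.00371). At day 11 no regulator and 2 of the further targets were called higher at 7 Gy, beside 1.06% of all genes. The 2 were Tap1, at 1.21 ± 0.17 (adjusted p = 0.00684), and Ckap2, at 1.21 ± 0.23 (adjusted p = 0.0174). Ckap2 had not been called at day 7, with -0.13 ± 0.16 (adjusted p = 0.693). The order of the cell cycle genes was turned round at day 11, and 19 of the 22 were called higher at 7 Gy than at 0 Gy, beside 1.06% of all genes, with a median of 1.17 and 1.58 ± 0.26 (adjusted p = 0.0123) for Mki67. The difference of the 7 Gy effect between the days was positive and called for all 22, where 2.20% of all genes were called positive. Without irradiation all 22 fell from day 7 to day 11, beside 11.7% of all genes, with a median of -2.02, while 14 of the 34 p53 targets rose. The summed level of the 22 was 929 to 1160 CPM at 0 Gy and 548 to 623 CPM at 7 Gy at day 7, and 254 to 286 CPM against 601 to 638 CPM at day 11. The part of proliferation in the course of the p53 targets was not tested.

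Marker lists of cell types are given beside these results. Of 9 stratified epithelial markers 7 were called lower at day 11 than at day 7 at 0 Gy, beside 11.7% of all genes. At 7 Gy at day 7, 3 were called lower (beside 3.75% of all genes) and 1 higher (beside 3.20%). The summed level at day 7 was 19000 to 21100 CPM at 0 Gy and 18500 to 25300 CPM at 7 Gy. All 6 markers of general epithelium were called higher at day 7 than at day 5 at 0 Gy, beside 12.0% of all genes. Their median was 1.44, and their summed level was 964 to 1140 CPM at day 5 and 2300 to 3390 CPM at day 7. In that interval 7 p53 targets were called lower, against 9.62% of all genes. The part of these 6 markers in that result was not tested. The thyroid follicular markers summed to 35.8 to 47.8 CPM at day 7 and 95.2 to 132 CPM at day 11 at 0 Gy. Of these, 2 of the 5 tested were called higher at day 11, beside 9.57% of all genes. The 6 markers of multiciliated cells were all called higher at day 11 than at day 7 without irradiation, beside 9.57% of all genes. They reached a summed level of 39.9 to 80.4 CPM, and stood at 12.0 to 33.4 CPM at 7 Gy day 11. There 2 were called lower than at 0 Gy, beside 92 of 19901 genes. The 8 fibroblast markers summed to 22.3 to 112 CPM at 0 Gy and 48.4 to 119 CPM at 7 Gy at day 7, and to 9.52 to 78.9 CPM and 19.4 to 91.2 CPM at day 11. Of the endothelial markers, Emcn had 0 counts in every library. Perp, which is also a desmosomal gene of stratified epithelium, was lower at each later day of the 0 Gy course, in ranges that did not overlap. The part of such shifts in the results of the p53 targets was not tested.

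Some of the counts are uncertain at the level of the gene. The deposited values were fractional in places, and no value of Mdm2 was a whole number (within 1e-09), while 33.3% of those of Cdkn1a, Tnfrsf10b, Rrm2b and Dcxr were. In GENCODE, 20 of the 34 targets are overlapped by a gene on the opposite strand, for instance Nudcd2 at Ccng1 and Dino at Cdkn1a. Whether strand was used in counting is not given in the sources used here, so reads of such pairs cannot be told apart.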

How the data were processed

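RNA was sequenced with Smart3SEQ, which reads the 3′ ends of transcripts, in 27 libraries of mTGOs. The authors deposited a table of estimated counts per gene symbol, of which 56.3% of the nonzero values were whole numbers within 1e-09. The submitters' processing notes name GRCm39, STAR and edgeR. The counting tool, annotation, use of strand and handling of molecular identifiers are not given in the sources used here. Totals of 2528866 to 5723150 counts per library limit the precision for scarce genes, a limit that covers the error of counting alone.

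The deposited counts were rounded and tested with edgeR 4.0.16 in R 4.3.3 (quasi-likelihood test, TMM factors, genes with at least 10 counts over the libraries of a fit, Benjamini-Hochberg at 0.05). Whole counts had been foreseen, and the rounding was the change made. Separate fits held the 12 libraries of day 7, the 12 of day 11, the 9 without irradiation, and the 24 of days 7 and 11. Alternatives were DESeq2 1.42.0, other scaling, filters and rounding, fits of the compared groups alone, the culture as a replicate block, and leaving out each library. The pairing comes from the culture names in the column headers. Deviations from the group means correlated within a culture at day 7 (mean r = 0.279, range 0.198 to 0.422, 18 pairs), with no same-culture pair of the 4 fits under r = 0.114. Between cultures the mean r was -0.139 at day 7. Centring on the means of 3 libraries ties that value to the one within cultures, so it adds no support for the pairing. In simulated data for 7 Gy against 0 Gy at day 7, 200 of 18930 genes were changed by a log2 of 1. The changed genes were drawn from those with a mean of at least 10 counts, and no effect of culture was simulated. Of the changed genes 71.5% were found by edgeR, and 5.3% of its calls were false. The recovery of scarcer genes, or under cultures that deviate together, was not simulated.

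All 34 targets are named, and those called at 7 Gy at day 7 with a mean of at least 10 CPM are given in every library. Of the other lists, up to 4 called genes with the largest change are named, and of the further targets also those called at 7 Gy at day 11. Values of some listed genes are not reported here. The members and lists were chosen with earlier results of these data known. Gene models are from GENCODE on GRCm39, and sequences were read from that genome. Figures and summaries were made with Python 3.11.15.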

Additional observations from a re-analysis of the deposited data

Results flagged for a closer look

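The effect of a dose differed between day 7 and day 11 for 20 combinations of target and dose, by an edgeR interaction test in the fit of days 7 and 11. All 20 differences, given as the log2 effect at day 11 minus that at day 7, were negative, so the excess over 0 Gy was smaller at the later day.

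At 4 Gy these were Eda2r with -1.99 (adjusted p = 0.0122), Ccng1 with -1.20 (adjusted p = 0.0203), Trp53inp1 with -1.14 (adjusted p = 0.00872) and Aen with -1.10 (adjusted p = 0.00836).

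At 7 Gy the feedback genes Trp53inp1, Ccng1 and Mdm2 had -1.50, -1.41 and -1.37. The arrest genes Cdkn1a, Plk2 and Btg2 had -1.13, -0.99 and -0.84. The apoptosis genes Bbc3 and Aen had -1.63 and -1.36, and the receptors Eda2r and Fas -2.32 and -1.81. Polk and Ercc5, of DNA repair, had -1.11 and -0.86. Ak1, Ddit4 and Ephx1 had -1.68, -1.03 and -0.86, and Zmat3 had -0.88. The adjusted p was highest for Ercc5 (adjusted p = 0.048) and Btg2 (adjusted p = 0.0432). With single libraries left out, the call ended for Ercc5 in 18 cases, Btg2 in 15, Ak1 in 7, Zmat3 in 6, Fas in 5 and Polk in 2. The part of the culture's own course in these differences was not tested.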

How the results depend on the processing

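The 21 calls at 7 Gy against 0 Gy at day 7 were kept in all 20 settings run for that contrast, and none of the 126 called estimates over all contrasts changed sign in any alternative. Of the 384 estimates that were not called, 97 did in at least 1 alternative, 14 of them without scaling factors. Of the 16 calls for the difference of the 7 Gy effect between the days, 10 were kept in every setting, and those of Fas, Ak1, Zmat3, Polk, Btg2 and Ercc5 were lost in some. The calls at 2 Gy at day 7, 8 in number, became 17 with no filter on low counts, 13 with a replicate block for culture and 2 with the compared groups fitted alone. Over all genes the 24 calls of that contrast became 404, 139 and 7. For the difference of the 4 Gy effect, 4 calls became 8 with DESeq2, 14 with no filter, 9 with the replicate block and 0 with the compared groups alone. Over all genes 24 calls became 78, 400, 130 and 10. Where the main test called 0 targets, the count was 3 with no filter for 4 against 2 Gy at day 7, beside 56 of all genes. It was 1 with DESeq2, with no filter and with the replicate block for 7 against 4 Gy, beside 18, 247 and 50. At day 11 it was 1 with DESeq2, 2 with no filter and 2 with the block at 4 Gy, beside 37, 465 and 238. For the difference of the 2 Gy effect it was 3 with no filter and 1 with the block, beside 95 and 2. At 7 Gy at day 11 the 1 call became 4 with no filter and 5 with the block, while 302 calls over all genes became 1205 and 1296. The block moved no other count by over 1.5 times. The cause of these shifts was not tested.

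With 1 library left out at a time, the counts ranged from 2 to 9 at 2 Gy, 14 to 21 at 4 Gy and 21 to 22 at 7 Gy at day 7, and from 0 to 1 at 7 Gy at day 11. They ranged from 0 to 11 for the difference of the 4 Gy effect, 11 to 17 for that of the 7 Gy effect and 6 to 13 for day 11 against day 7 after 7 Gy. Without irradiation they ranged from 7 to 12, 15 to 17 and 16 to 19 for days 7 against 5, 11 against 7 and 11 against 5. Over all genes, the 1345 calls of 7 Gy against 0 Gy at day 7 were 2206 with the block and 2211 with no filter. Scarce targets such as Fas, Gdf15 and Pvt1 rest on few counts, and 3 libraries per group leave small changes undetected.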
